A study of Homo sapiens with 3 samples.

Results

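The proteasome genes were followed across 3 cap analysis of gene expression (CAGE) libraries of EBC-1, an established human line of lung squamous cell carcinoma. They were taken as every gene whose symbol is PSMA, PSMB, PSMC, PSMD, PSME, PSMF or PSMG followed by a number. That gave 46 symbols in 47 of the 13479 entries of the table. The extra entry is a second one for PSMA1 (ENSG00000256206), which overlaps the first and was left out of all counts. The genes were divided by role into 14 subunits of the core particle, 17 of the regulatory particle, 5 immunoproteasome genes (PSMB8, PSMB9, PSMB10, PSME1 and PSME2), 3 other regulators (PSME3, PSME4 and PSMF1) and 7 assembly factors. PSMA8 and PSMB11, the testis and thymus forms of core subunits, had no entry among the deposited values.

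EBC-1 cells had been electroporated with 600 pmol of a negative control siRNA, of RAB11A siRNA 1 or of RAB11A siRNA 2, and the labels give 72 h after plating for all of them. RAB11A encodes a small GTPase of the recycling endosome. Each group was 1 library of a single cell line, so the ratios below have no replicate check, and a difference between libraries cannot be told apart from a difference between cultures. The deposited unit is CPM, tags scaled by library size. The values rise in steps of 0.04 CPM, from which a total near 24999950 tags was recovered for each library. Why the 3 totals are equal is not known, tags summed over entries slightly exceeded them (25137457 to 25204585), and the counting errors below rest on these recovered tags. RAB11A itself stood at 135 CPM in the control library, 7.48 CPM with siRNA 1 and 22.7 CPM with siRNA 2, which is 5.53% and 16.8% of the control level. Of 5 epithelial markers 4 were listed (EPCAM, KRT8, KRT18 and KRT19), with EPCAM at only 3.72 to 4.28 CPM, and CDH1 was not. Of 10 squamous markers only PERP, S100A2 and SFN were listed, and KRT5, KRT14, KRT6A, TP63, SOX2, DSG3 and PKP1 were not, so the squamous label rests on 3 genes here. Of 14 markers of leukocytes, endothelium, fibroblasts and alveolar cells, only COL1A1 and COL1A2 were listed, together at 2.60 to 3.32 CPM per library.

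The proteasome degrades proteins that carry ubiquitin chains. Its core particle is a barrel of stacked rings, with PSMA subunits in the outer rings and PSMB subunits, which include the proteolytic sites, in the inner rings. The regulatory particle caps the barrel: PSMC ATPases unfold the substrate, and PSMD subunits bind and remove ubiquitin. Interferon-induced cells replace the catalytic PSMB subunits by PSMB8, PSMB9 and PSMB10, and cap part of their core particles with the PA28 activator made of PSME1 and PSME2. Dedicated chaperones build the particle. When proteasome activity is short, the transcription factor NFE2L1 raises the subunit genes through antioxidant response elements in their promoters.

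CAGE counts the capped starts of transcripts, so windows around annotated starts are given here. The starts that the counted tags came from were not mapped onto these windows. RefSeq promoter windows of GRCh38.p14, from 250 bases before the annotated start to 50 after it, were matched by symbol for 40 of the 46 genes. PSMA7, PSMB1, PSMB6, PSMB7, PSMD4 and PSMG3 had no entry. Shown are PSMB3 (chr17:38752491-38752790, plus strand), the core gene with the highest ratio of siRNA 1 to control, PSME4 (chr2:53970944-53971243, minus strand), the gene with the lowest such ratio, and the PA28 pair PSME1 (chr14:24135944-24136243, plus strand) and PSME2 (chr14:24146561-24146860, minus strand), whose ratios had opposite signs. Capitals in these sequences mark the antioxidant response element core TGACNNNGC or its reverse complement. PSMC1 (chr14:90256303-90256602, plus strand), the ATPase with the widest gap between the siRNA libraries, is shown with the ETS core CCGGAAG, here as its reverse complement, in capitals.
PSMB3: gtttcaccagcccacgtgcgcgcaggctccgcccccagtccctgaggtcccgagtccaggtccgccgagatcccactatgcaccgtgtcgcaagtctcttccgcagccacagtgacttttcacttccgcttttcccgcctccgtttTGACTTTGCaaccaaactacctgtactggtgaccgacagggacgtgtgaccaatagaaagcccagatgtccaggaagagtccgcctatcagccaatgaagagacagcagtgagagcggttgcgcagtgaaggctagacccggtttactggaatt
PSME4: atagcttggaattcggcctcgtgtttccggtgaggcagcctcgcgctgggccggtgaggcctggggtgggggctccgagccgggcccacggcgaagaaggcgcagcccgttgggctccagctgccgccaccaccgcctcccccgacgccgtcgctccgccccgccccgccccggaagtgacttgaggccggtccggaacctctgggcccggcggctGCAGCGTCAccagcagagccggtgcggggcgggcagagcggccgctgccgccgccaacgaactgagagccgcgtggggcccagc
PSME1: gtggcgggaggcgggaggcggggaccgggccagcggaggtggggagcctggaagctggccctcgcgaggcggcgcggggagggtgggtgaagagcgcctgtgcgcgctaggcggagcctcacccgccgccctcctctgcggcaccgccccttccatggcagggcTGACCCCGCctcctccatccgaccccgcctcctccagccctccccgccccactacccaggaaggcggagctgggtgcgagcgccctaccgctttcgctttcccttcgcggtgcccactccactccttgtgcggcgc
PSME2: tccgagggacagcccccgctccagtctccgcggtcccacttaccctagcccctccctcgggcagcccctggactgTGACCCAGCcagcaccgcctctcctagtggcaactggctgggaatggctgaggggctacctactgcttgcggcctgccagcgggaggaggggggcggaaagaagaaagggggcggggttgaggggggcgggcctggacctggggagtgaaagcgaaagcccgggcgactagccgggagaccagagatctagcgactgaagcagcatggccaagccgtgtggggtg
PSMC1: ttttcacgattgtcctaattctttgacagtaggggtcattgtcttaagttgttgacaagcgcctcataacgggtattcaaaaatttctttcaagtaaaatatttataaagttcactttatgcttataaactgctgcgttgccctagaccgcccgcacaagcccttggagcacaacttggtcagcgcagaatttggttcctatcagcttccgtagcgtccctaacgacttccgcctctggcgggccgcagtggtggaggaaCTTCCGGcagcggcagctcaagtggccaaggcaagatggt

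The antioxidant response element core began 104 bases before the annotated start in PSMB3, 34 in PSME4, 86 in PSME1 and 175 in PSME2. The ETS core of PSMC1 lay after the start, from base 10. With both strands searched, TGACNNNGC was present in 13 of 40 proteasome promoters (32.5%), against 13.6% of all 27305 promoters of the same length and 15.8% of the 7551 belonging to genes compared below. By role it was in 1 of 10 core promoters (PSMB3), 4 of 16 regulatory (PSMC4, PSMD1, PSMD3 and PSMD12), 3 of 5 immunoproteasome (PSMB9, PSME1 and PSME2), 1 of 3 other regulators (PSME4) and 4 of 6 assembly factors (PSMD5, PSMD9, PSMG1 and PSMG2). Median log2 ratios to control were 0.06 (siRNA 1) and 0.03 (siRNA 2) in the 13 genes with the motif and 0.05 and -0.01 in the 27 without it. The motif stood in promoters of genes on both sides of the control level, and whether it bears on the ratios was not tested.

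The ETS core CCGGAAG differed between the roles. It was in 9 of 16 regulatory promoters and in 0 of 10 core promoters. Over all proteasome promoters it was in 12 of 40 (30.0%), against 10.7% of all promoters and 22.2% of those of genes compared. Median log2 ratios to control were -0.03 (siRNA 1) and -0.09 (siRNA 2) in the 12 genes with it and 0.07 and 0.03 in the 28 without it, which include all 10 core promoters. The CCAAT box, the NF-Y core, was in 18 of 40 (45.0%, against 35.7% and 37.6%), and the GC box GGGCGG in 27 of 40 (67.5%, against 44.6% and 73.1%). None of the 4 motifs contains another, but copies can overlap in a promoter. These are matches of letters, with no binding measured.

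All but PSME4 and PSMB10 stood above the median level of all genes compared (31.6 CPM in control) in every library. A CAGE tag stands for 1 transcript start whatever the transcript's length, so levels are compared between genes as CPM. Summed over the 46 genes, the control library held 9117 CPM, the siRNA 1 library 9724 CPM and the siRNA 2 library 9304 CPM, or 0.912%, 0.972% and 0.930% of each library. In bulk RNA, fewer cells of a kind and less RNA per cell cannot be told apart. The sum was 6.65% above control with siRNA 1 and 2.05% above with siRNA 2. Within the control library the core genes spanned from PSMB4 at 106 CPM to PSMA1 at 643 CPM, a 6.06-fold range for subunits that are present in equal numbers in the finished barrel. Regulatory genes spanned from PSMC4 at 68.2 CPM to PSMD2 at 510 CPM, a 7.49-fold range.

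**Figure D1:**
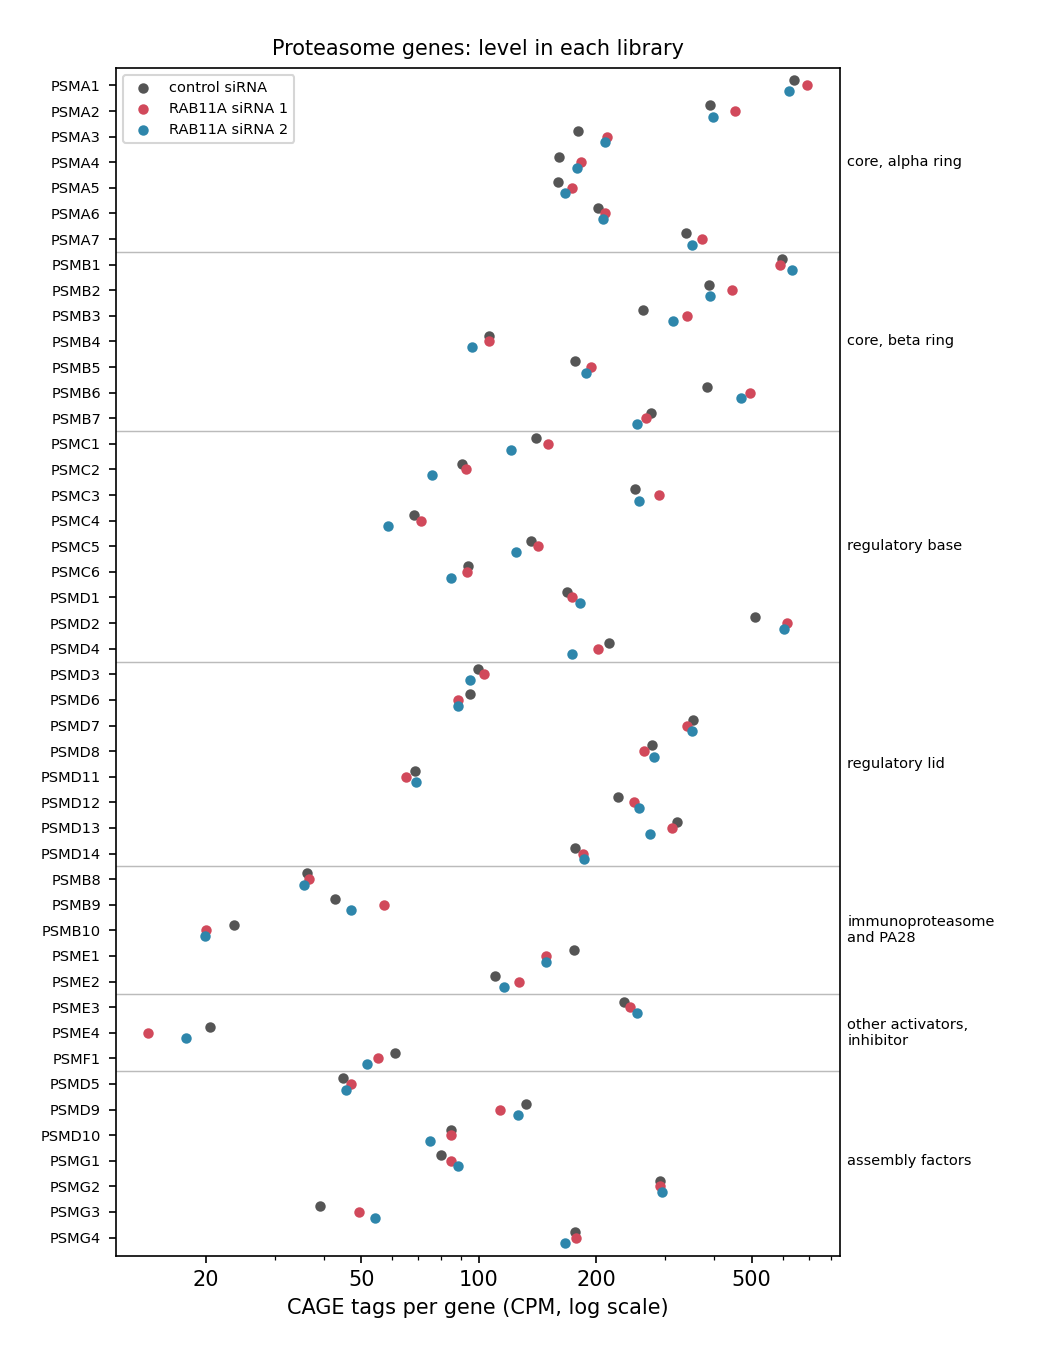
Level of each of the 46 proteasome genes in each library (x axis, CPM on a log scale; 1 point per library; grey control siRNA, red RAB11A siRNA 1, blue RAB11A siRNA 2; rows grouped by role). The 3 points of a gene lie close together compared with the range between genes, from PSME4 at 20.5 CPM to PSMA1 at 643 CPM in control.

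Each ratio is a log2 ratio of (CPM + 1). The 10788 genes averaging 5 CPM or more were compared, and all 46 were among them. Standard errors (SE) of ratios cover the counting of tags only. Both siRNA libraries are compared with the same control library, so their ratios are given side by side and are not independent. Few proteasome genes were far from control. With siRNA 1, 5 of 46 (10.9%) lay at least 0.322 from control on the log2 scale, against 21.8% of all genes. Of these PSMB3, PSMB6, PSMB9 and PSMG3 were higher and PSME4 was lower. With siRNA 2, 1 of 46 (2.17%) lay that far from control, against 17.2% of all genes, and it was PSMG3, again higher. Over all genes 10.24% were that much higher and 11.60% lower with siRNA 1, and 5.997% and 11.16% with siRNA 2. With both directions counted together, the proteasome genes were thus below the background share with either siRNA. By direction, the 8.70% higher with siRNA 1 was near the background share, and the 2.17% lower was below it. The proteasome genes also had a higher median level in control (172 CPM) than all genes compared (31.6 CPM). Among genes averaging 20 CPM or more, 9.59% were higher and 10.2% lower with siRNA 1, and 5.44% and 9.61% with siRNA 2.

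None of the 46 was 2-fold from control with siRNA 1 (0.890% of all genes) or siRNA 2 (0.463%). One gene, PSMG3, was at least 0.322 above control in both (3.93% of all genes), and 0 were as much below it in both (5.39%). The spread of the 46 ratios was narrow: their SD was 0.171 with siRNA 1 and 0.167 with siRNA 2, against 0.336 and 0.315 over all genes, and 0.318 and 0.277 over the 6931 genes that averaged 20 CPM or more. The median log2 ratio of the 46 was 0.05 with siRNA 1 and 0.01 with siRNA 2, against -0.03 and -0.04 over all genes.

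More proteasome genes than not lay above control, by small amounts. With siRNA 1, 32 of 46 (69.6%) had a ratio above 0, against 45.1% of all genes, and with siRNA 2, 25 of 46 (54.3%) against 41.4%. Above control in both libraries were 22 (47.8%, against 31.4%), and below in both were 11 (23.9%, against 44.5%). Small ratios depend on the scaling of the libraries. TMM scaling moved the ratios to control up by 0.03 and 0.05, and the counts became 34 with siRNA 1 (49.4% of all genes) and 28 with siRNA 2 (50.7%). Under that scaling 25 were above control in both (38.2% of all genes) and 9 below in both (38.1%). The genes whose sign turned were PSMB1 and PSMC6 with siRNA 1 and PSMA1, PSMB8 and PSMD7 with siRNA 2.

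An exact two-sided binomial test of tags, adjusted by Benjamini-Hochberg over all 10788 genes at 0.05, compares these libraries and not the conditions. With siRNA 1 it placed 18 proteasome genes above control (39.1%, background 23.3%) and 8 below (17.4%, background 29.1%). With siRNA 2 it placed 13 above (28.3%, background 18.4%) and 15 below (32.6%, background 29.9%). With both siRNA libraries as 1 arm against the single control library, limma and edgeR's quasi-likelihood test each called 0 proteasome genes, against 0.139% and 0.121% of all genes. An unadjusted p under 0.05 was reached by 3 of 46 in each, against 1511 of 10788 genes in limma and 1548 in edgeR. The lowest adjusted p among the proteasome genes was 0.268 in limma and 0.241 in edgeR.

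**Figure D2:**
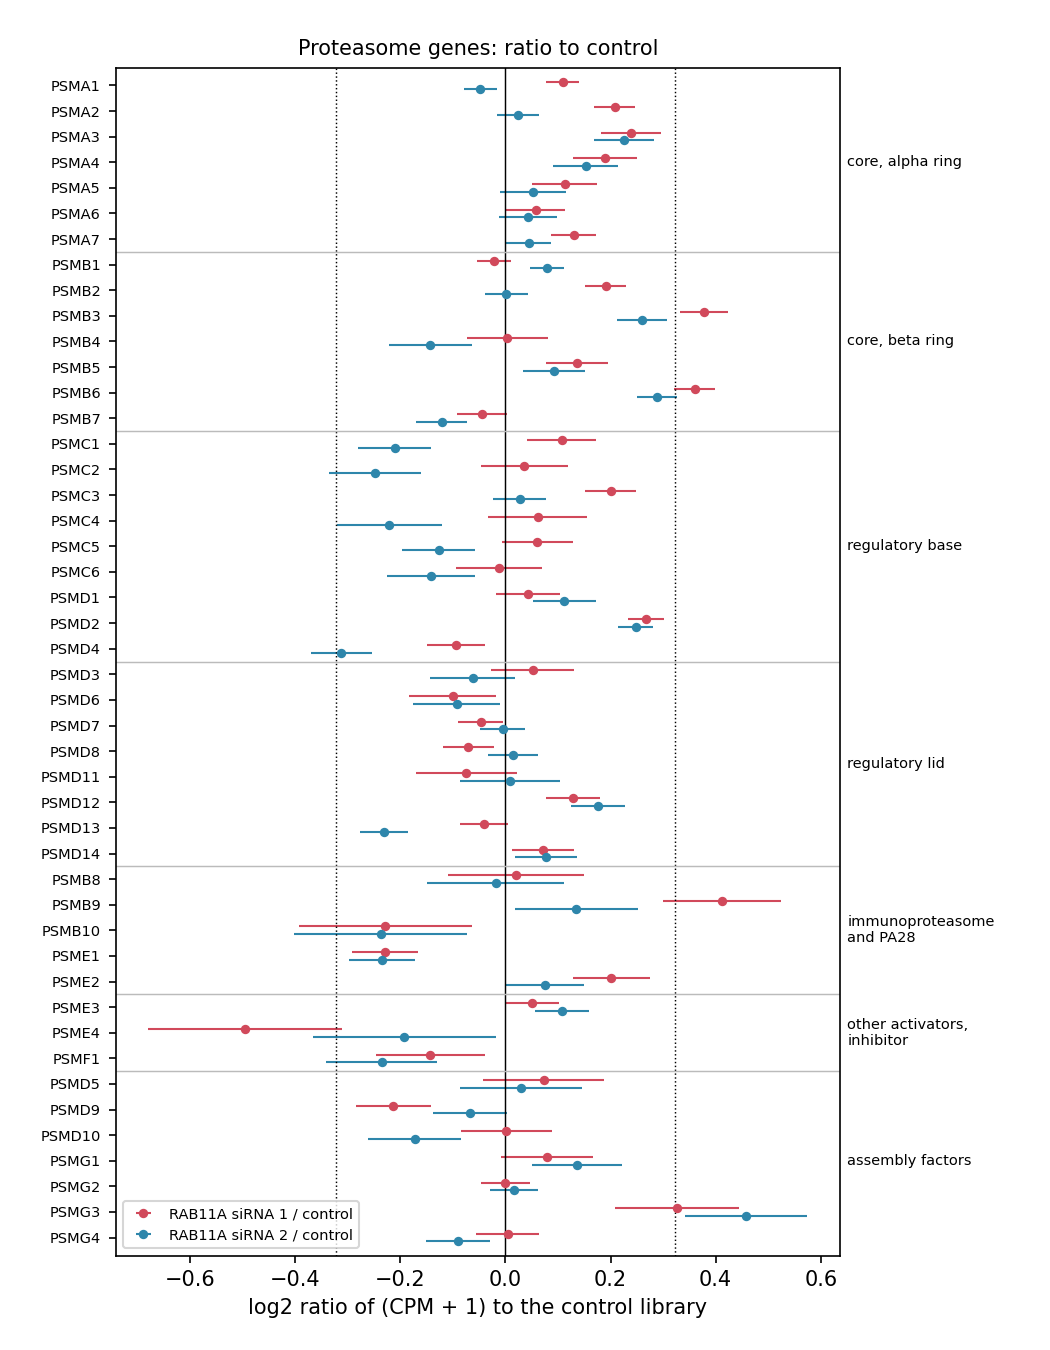
Log2 ratio of (CPM + 1) to the control library for each proteasome gene (x axis; red siRNA 1, blue siRNA 2; bars 95% counting intervals; dotted lines 0.322 either side of 0). Most points lie between the dotted lines, with PSMB3, PSMB6, PSMB9 and PSMG3 beyond the right one and PSME4 beyond the left one for siRNA 1.

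The core particle as a sum stood above control with both siRNAs, though not in every gene. Its summed level was 4271 CPM in control, 4734 CPM with siRNA 1 (10.9% higher) and 4479 CPM with siRNA 2 (4.87% higher). Of its 14 genes 12 had a ratio above 0 with siRNA 1 and 11 with siRNA 2, with medians of 0.13 and 0.05. Over all genes 45.1% and 41.4% were above 0. PSMA1, PSMB4 and PSMB7 lay below control with siRNA 2 (log2 ratios -0.05, -0.14 and -0.12). Under TMM scaling 13 and 12 were above, against 49.4% and 50.7% of all genes, and the median with siRNA 2 was 0.10.

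The highest ratios of the core belonged to the beta ring. PSMB3, a non-catalytic subunit (ENSG00000108294, chr17:36908994-36920478 in GRCh37), stood at 263 CPM in control, 341 CPM with siRNA 1 and 315 CPM with siRNA 2. Its log2 ratios were 0.38 (SE 0.024) and 0.26 (SE 0.024). PSMB6, the caspase-like catalytic subunit, stood at 385, 494 and 470 CPM in the same order of libraries, with log2 ratios of 0.36 (SE 0.020) and 0.29 (SE 0.020). In both genes the control library was the lowest and siRNA 1 the highest.

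The other catalytic subunits were nearer to control. PSMB5, the chymotrypsin-like subunit, stood at 176, 194 and 188 CPM, and PSMB7, the trypsin-like subunit, at 276, 267 and 253 CPM in the same order. PSMB5 was thus above control in both siRNA libraries (log2 ratios 0.14 and 0.09) and PSMB7 below it in both (-0.04 and -0.12). PSMB4, a non-catalytic subunit, was level with control in siRNA 1 (106 and 106 CPM) and lower in siRNA 2 (95.9 CPM). PSMB1 stood at 600, 590 and 633 CPM and PSMB2 at 389, 445 and 390 CPM, so that siRNA 2 was highest for the first and siRNA 1 for the second.

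The alpha ring varied less. Its 7 ratios of siRNA 1 to control ran from 0.06 (PSMA6) to 0.24 (PSMA3), with an SD of 0.064, and the summed level was 10.6% above control. With siRNA 2 they ran from -0.05 (PSMA1) to 0.23 (PSMA3), with a summed level 2.75% above control. PSMA3 stood at 180 CPM in control, 212 CPM with siRNA 1 and 211 CPM with siRNA 2. It was the one alpha subunit with nearly the same level in both siRNA libraries at a ratio above 0.2. PSMA2, at 392, 453 and 398 CPM, and PSMA1, at 643, 693 and 622 CPM, were above control in siRNA 1 (log2 ratios 0.21 and 0.11). With siRNA 2 their ratios were 0.02 (SE 0.020) and -0.05 (SE 0.016), and that of PSMA1 turned above 0 under TMM scaling.

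The regulatory particle had genes on both sides of control. Its summed level was 3293 CPM in control, 3438 CPM with siRNA 1 (4.40% higher) and 3285 CPM with siRNA 2 (a change of -0.238%). Of 17 genes 10 were above control with siRNA 1 and 7 with siRNA 2, with medians of 0.04 and -0.06. Over all genes 45.1% and 41.4% were above control. Under TMM scaling 11 and 8 of the 17 were above, against 49.4% and 50.7% of all genes. PSMD2, the scaffold subunit that holds ubiquitin shuttles, was the highest in both. It stood at 510 CPM in control, 614 CPM with siRNA 1 and 606 CPM with siRNA 2, with log2 ratios of 0.27 (SE 0.017) and 0.25 (SE 0.017). PSMD4, a receptor for ubiquitin chains, was lower: it stood at 215, 202 and 173 CPM in the same order, with log2 ratios of -0.09 (SE 0.028) and -0.31 (SE 0.029). PSMD1, the other large scaffold subunit, stood at 168, 173 and 182 CPM and was highest with siRNA 2. Copies elsewhere in the genome exist for 2 of 19 annotated starts of PSMD2, 3 of 12 of PSMD4 and 3 of 19 of PSMD1.

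In the lid, which removes ubiquitin chains, the 8 ratios were small. They ran from -0.10 (PSMD6) to 0.13 (PSMD12) with siRNA 1 and from -0.23 (PSMD13) to 0.18 (PSMD12) with siRNA 2. PSMD12 stood at 228, 249 and 258 CPM, control first, and PSMD13 at 322, 313 and 274 CPM. PSMD14, the deubiquitinase of the lid, stood at 176, 185 and 186 CPM, just above control in both (0.07 and 0.08). The lid's summed level was 1620, 1610 and 1603 CPM, which are nearly equal.

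The 6 PSMC genes, whose products form the ATPase ring, differed between the siRNA libraries in 1 direction. All 6 were higher in siRNA 1 than in siRNA 2, with log2 ratios from 0.13 (PSMC6) to 0.318 (PSMC1) and a median of 0.23. Over all genes the median of that ratio was 0.02, and 55.0% of them were above 0. All 7 alpha ring genes and all 5 immunoproteasome genes were above 0 as well, with smaller medians of 0.06 and 0.04. Of these, PSMA3, PSMA6, PSMB10 and PSME1 were only at 0.005 to 0.015 and turned below 0 under TMM scaling. The plan had placed the PSMC genes with PSMD1, PSMD2 and PSMD4 in the regulatory base, where 8 of 9 genes were above 0. TMM scaling moves this ratio down by 0.02, which turns the sign of none of the 6 PSMC genes. Their summed level was 780 CPM in control, 839 CPM with siRNA 1 and 721 CPM with siRNA 2, so the siRNA 1 sum was 16.3% above that of siRNA 2 (log2 ratio 0.22, SE 0.015). Control lay between the siRNA libraries for PSMC1, PSMC2, PSMC4 and PSMC5.

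PSMC1 stood at 140 CPM in control, 151 CPM with siRNA 1 and 121 CPM with siRNA 2. PSMC2 stood at 90.4, 92.7 and 75.9 CPM and PSMC4 at 68.2, 71.2 and 58.4 CPM in the same order. In these 3 genes siRNA 1 lay a little above control and siRNA 2 further below it. PSMC3, at 252, 290 and 257 CPM, was above control in both siRNA libraries. PSMC5 stood at 136, 142 and 124 CPM, and PSMC6, at 94.0, 93.1 and 85.1 CPM, was below control in both, though with TMM scaling its ratio of siRNA 1 to control turned above 0. Some PSMC1 tags may be listed under its pseudogene PSMC1P1, at 8.48, 9.88 and 14.2 CPM. With the pseudogene added, PSMC1 stood at 148, 160 and 135 CPM, and the log2 ratio of siRNA 1 to siRNA 2 was 0.25 in place of 0.318. PSMC1, PSMC2, PSMC4 and PSMC6 each have at least 1 annotated start with a copy elsewhere in the genome, so their counts are less certain. PSMC3 and PSMC5 have none. Without genes that have such copies, the regulatory median of siRNA 1 to siRNA 2 was -0.0062 in place of 0.11.

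None of the 46 genes was 0.322 or more apart between the siRNA libraries in either direction, against 10.3% of all genes (6.34% higher in siRNA 1 and 3.995% lower), and none was 2-fold apart (0.352% of all genes). TMM scaling put 1, PSME4, that far lower in siRNA 1. By the binomial test of tags 21 were higher in siRNA 1 (45.7%, background 21.4%) and 4 lower (8.70%, background 15.4%). Above 0 were 32 of 46 (69.6%, against 55.0% of all genes), among them 13 of 14 core genes. Under TMM scaling these were 27 and 11, because PSMA3, PSMA6, PSMB10, PSMD2 and PSME1 turned sign. The share of all genes above 0 was then 50.1%.

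**Figure D3:**
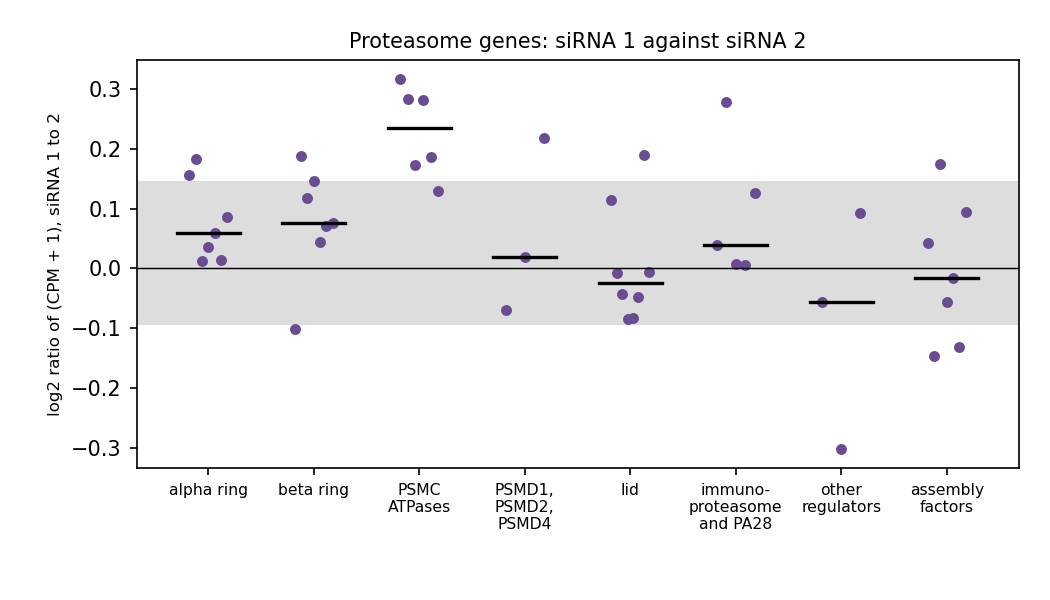
Log2 ratio of (CPM + 1) of siRNA 1 to siRNA 2 for each proteasome gene by role (y axis; 1 point per gene; black bars medians; grey band the middle quartiles of all 10788 genes, from -0.09 to 0.14). The 6 PSMC genes all lie above 0 with a median of 0.23. The 7 alpha ring genes and the 5 immunoproteasome genes also all lie above 0, with smaller medians. PSMA3, PSMA6, PSMB10 and PSME1 lie close to 0 and turned below it under TMM scaling. The lid and assembly factors lie on both sides of 0.

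The immunoproteasome genes had no common direction against control. Their summed level was 387 CPM in control, 389 CPM with siRNA 1 and 367 CPM with siRNA 2, and their median log2 ratios were 0.02 and -0.02. PSMB9 stood at 42.7 CPM in control, 57.2 CPM with siRNA 1 and 47.0 CPM with siRNA 2, with log2 ratios of 0.41 (SE 0.057) and 0.13 (SE 0.060). PSMB8, whose gene overlaps PSMB9 on the opposite strand (chr6:32808494-32812456 and chr6:32811913-32827628, GRCh37), stood at 36.2, 36.7 and 35.7 CPM. The neighbours thus differed: PSMB9 was highest in siRNA 1, and PSMB8 was level across libraries within its SE of 0.066. PSMB10 stood at 23.6, 19.96 and 19.84 CPM, below control in both (log2 ratios -0.23 and -0.24, SE 0.084 each).

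The constitutive subunits predominated over their immune counterparts in every library. PSMB8 made up 17.0% of the tags of PSMB8 and PSMB5 in control (exact 95% binomial interval 16.03 to 18.08), 15.93% with siRNA 1 (14.99 to 16.90) and 15.97% with siRNA 2 (15.02 to 16.95). PSMB9 made up 10.0% of its pair with PSMB6 in control (9.44 to 10.6), 10.4% with siRNA 1 (9.88 to 10.9) and 9.09% with siRNA 2 (8.60 to 9.60). PSMB10 made up 7.87% of its pair with PSMB7 in control (7.27 to 8.50), 6.95% with siRNA 1 (6.37 to 7.56) and 7.26% with siRNA 2 (6.66 to 7.90). Each siRNA interval overlapped that of control in all 3 pairs, and the one pair of intervals that did not overlap was siRNA 1 against siRNA 2 for PSMB9. Overlap of intervals is not a test, since shares with overlapping intervals can still differ beyond counting error. A difference in share between libraries was not tested. Although PSMB9 had the highest ratio of siRNA 1 to control of all 46 genes, its share was nearly that of control because PSMB6 was higher as well.

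**Figure D4:**
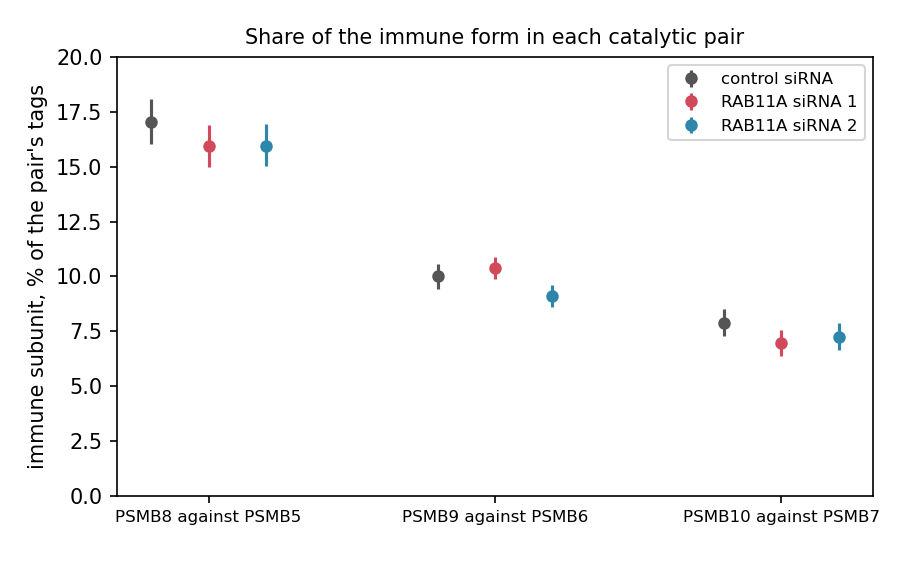
Immune subunit as a percentage of the tags of its pair (y axis) in each library (grey control, red siRNA 1, blue siRNA 2; bars exact 95% binomial intervals, counting error only). PSMB8 lies between 15.9% and 17.0%, PSMB9 between 9.09% and 10.4% and PSMB10 between 6.95% and 7.87%.

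The genes of the PA28 activator lay on opposite sides of control. PSME1 (ENSG00000092010, chr14:24605372-24608176, plus strand, GRCh37) stood at 175 CPM in control, 149 CPM with siRNA 1 and 148 CPM with siRNA 2. Its log2 ratios were -0.23 (SE 0.032) and -0.24 (SE 0.032), nearly the same in both. PSME2 (ENSG00000100911, chr14:24612571-24616779, minus strand), its partner and close neighbour, stood at 110, 127 and 116 CPM, with log2 ratios of 0.20 (SE 0.037) and 0.08 (SE 0.038). Of the 17 annotated starts of PSME2, 2 have a copy elsewhere in the genome. Both promoters printed above hold TGACNNNGC, and whether the motif bears on either ratio was not tested. In control PSME1 was well above PSME2, and in the siRNA libraries the levels of the partners were nearer to each other.

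Of the other regulators, PSME4, the gene of the PA200 activator (ENSG00000068878, chr2:54091206-54198130, minus strand, GRCh37), had the lowest ratio of siRNA 1 to control of all 46. It stood at 20.5 CPM in control, 14.2 CPM with siRNA 1 and 17.8 CPM with siRNA 2, with log2 ratios of -0.50 (SE 0.094) and -0.19 (SE 0.089). It was also the lowest in level, so its counting error was the largest. PSMF1, which encodes the inhibitor PI31, stood at 60.9, 55.0 and 51.6 CPM, below control in both. PSME3, the nuclear PA28 gamma, stood at 235, 244 and 254 CPM, above control in both.

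The assembly factors kept nearly the same sum, 849.2 CPM in control, 848.8 CPM with siRNA 1 and 850.04 CPM with siRNA 2. Single genes moved more than the sum, in both directions. PSMG3, a chaperone of the alpha ring, had the highest ratios to control of the 7. It stood at 39.2 CPM in control, 49.4 CPM with siRNA 1 and 54.2 CPM with siRNA 2, with log2 ratios of 0.33 (SE 0.060) and 0.46 (SE 0.059). One of the 3 annotated starts of PSMG3 has a copy elsewhere in the genome, so its count is less certain. PSMG2, the most abundant chaperone at 292, 292 and 295 CPM, was level, and PSMG1, its partner, stood at 80.2, 84.8 and 88.2 CPM. PSMG4, the partner of PSMG3, stood at 177, 177 and 166 CPM and did not share the pattern of PSMG3.

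The 3 chaperones of the regulatory base were at or below control, except PSMD5. PSMD9 stood at 132 CPM in control, 114 CPM with siRNA 1 and 126 CPM with siRNA 2. PSMD10, also known as gankyrin, stood at 84.7, 84.8 and 75.04 CPM, and PSMD5 at 44.8, 47.1 and 45.7 CPM. PSMD9 was lowest in siRNA 1 and PSMD10 in siRNA 2, so the base chaperones had no common direction either.

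Of 27 further genes of the ubiquitin-proteasome pathway, all measured, 1 was at least 0.322 above control and 5 as far below it with siRNA 1, where 10.24% and 11.60% of all genes were. With siRNA 2, 1 was that far above and 3 below, where 5.997% and 11.16% of all genes were. Their medians were -0.06 and -0.11. SHFM1, the small lid subunit also called SEM1, stood at 542 CPM in control, 706 CPM with siRNA 1 and 710 CPM with siRNA 2 (log2 ratios 0.38 and 0.39). It exceeded every PSMC and PSMD gene in both ratios. ADRM1, a ubiquitin receptor of the regulatory particle, stood at 122, 111 and 120 CPM, and POMP, the maturation factor of the core, at 485, 528 and 550 CPM.

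Of the 4 listed genes that act on proteasome gene transcription, NFE2L1, NFE2L2 and NGLY1 lay below control in both siRNA libraries, as did 44.5% of all genes. The protease gene DDI2 stood at 20.8, 22.96 and 19.2 CPM, above control with siRNA 1 and below it with siRNA 2. NFE2L1 stood at 109 CPM in control, 79.1 CPM with siRNA 1 and 80.8 CPM with siRNA 2, with log2 ratios of -0.46 and -0.43. It was among 3 of the 27 pathway genes that lay at least 0.322 below control in both, as did 5.39% of all genes. NGLY1, the glycanase that activates the product of NFE2L1, stood at 37.8, 28.2 and 33.3 CPM (log2 ratios -0.41 and -0.18). NFE2L2, a related factor that binds the same element, stood at 76.4, 62.1 and 63.7 CPM. The summed level of the core genes was above control in the same libraries in which NFE2L1 was below it, and a link between them was not tested. UBQLN4, a shuttle that carries ubiquitinated proteins to the proteasome, stood at 27.4, 17.8 and 12.1 CPM and had the lowest ratios of the list, -0.59 and -1.12.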

How the data were processed

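CAGE tags per gene and strand in CPM were deposited by the authors, 1 column per library. The submitters' processing notes name hg19, BWA and HISAT2, and roles, versions, and how tags were counted, are not given there. Whole tags were recovered from the deposited CPM for at least 99.99% of values (tolerance 0.005 CPM). An SE or interval covers counting error only, since molecular identifiers are not given.

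Log2 ratios used a pseudocount of 1 CPM, which understates ratios of low genes, and a minimum mean of 5 CPM (125 tags). With 1 library per group no siRNA was tested against control with replicates. Members, gene lists and the naming rule were chosen with earlier results of these data known. The rule names every PSM gene, the 4 of 27 pathway genes with the largest ratio to control, NFE2L1, NFE2L2, POMP, ADRM1 and RAB11A. PSMC1P1 and DDI2 were named after their values were seen.

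Alternatives were other pseudocounts, filters, fold thresholds, TMM and median-ratio scaling, the binomial test, and limma 3.58.1 and edgeR 4.0.16 (R 4.3.3) with both siRNA libraries as 1 arm; on recovered tags edgeR called 13 of 10788 genes. The first 50 bases of annotated starts (GENCODE on GRCh37) were searched with blastn 2.17.0, allowing 2 mismatches: 15 of 46 genes had a start with a copy elsewhere, and for PSMA2 this was the canonical start. The scripts used Python 3.11.15, pandas 2.3.3 and scipy 1.17.1. Counts and tests were checked on simulated tags.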

Additional observations from a re-analysis of the deposited data

How the results depend on the processing

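No paired analysis was possible because each group has 1 library, and for the same reason no library could be left out. Of 18 medians of log2 ratios, 9 changed sign under at least 1 alternative, none of them a core median and none a regulatory median against control. Of 138 single-gene ratios 10 did, all under scaling and none larger than 0.047 in size. A threshold of 1.5-fold left 0 genes higher or lower with siRNA 1 and 0 higher with siRNA 2. A minimum mean of 20 CPM left 0 lower with siRNA 1, since PSME4 was dropped, and moved the median of the other regulators with siRNA 2 to -0.064. The binomial test of tags gave 18 higher and 8 lower with siRNA 1, 13 higher and 15 lower with siRNA 2, and 21 higher and 4 lower for siRNA 1 against siRNA 2. TMM and median-ratio scaling each gave 2 genes higher with siRNA 2, 2 higher in both, 1 lower in siRNA 1 than in siRNA 2, and a core median with siRNA 2 of 0.10. Without genes whose starts have copies, 0 were higher with siRNA 2 or in both, since PSMG3 was left out. The immunoproteasome median with siRNA 1 then turned from 0.02 to -0.10 and the regulatory median of siRNA 1 to siRNA 2 -0.0062. A pseudocount of 5 CPM gave 0 genes higher in both. With both siRNA libraries as 1 arm against 1 control library, which asks another question, limma and edgeR each called 0 higher. From summed CPM, the ratios of the other regulators were -0.016 with siRNA 1 and 0.028 with siRNA 2. Beyond what is stated, the cause was not tested. The immunoproteasome median with siRNA 2 turned to 0.03 under both scalings. Depth limits PSME4, PSMB10 and PSMB8 the most, with counting SE of 0.094, 0.084 and 0.066 with siRNA 1.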

Other observations

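PSMG3-AS1, the antisense gene of PSMG3, stood at 8.12 CPM in control, 6.08 CPM with siRNA 1 and 6.84 CPM with siRNA 2, lower than control in both libraries in which PSMG3 was higher. Its log2 ratios were -0.37 (SE 0.14) and -0.22 (SE 0.13). The pseudogene PSMA2P3 was listed at 0.76, 1.88 and 1.76 CPM, and PSMA6P1 at 1.00, 0.68 and 0.72 CPM. PSMC3IP, a recombination factor named after the ATPase PSMC3, stood at 30.0, 32.0 and 33.4 CPM. The second PSMA1 entry stood at 550, 602 and 539 CPM, in the same order as the first. Values of PSMA2, PSMA6, PSMB10, PSMC2 and PSMD9 were identical to those of another entry in all 3 libraries, so these tags may be counted under more than 1 gene.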
